A study of Mus musculus with 16 samples.

Results

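The haemoglobin and erythroid genes of mouse spinal cord were read from 11 of the 12488 probe sets of a single-colour expression array. A probe set was taken where any of the gene symbols that the platform annotation gives it starts with Hba or Hbb, or is Alas2. Of the 11, 7 lay above a filter on dim probe sets and were among the 6432 tested, and 4 lay under it. Hba-a1 and Alas2 were chosen by their values on these same arrays, Hba-a1 for its difference between spastic and B6C3Fe cords, so every difference that involves the B6C3Fe arrays is given as a description and supports nothing.

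Haemoglobin carries oxygen in red cells as a tetramer of alpha-like and beta-like chains, each holding a haem group. Hba-a1 and Hba-a2 encode the adult alpha chain, Hba-x the embryonic alpha-like chain, Hbb-y and Hbb-bh1 embryonic beta-like chains, and the adult beta chains come from a pair of neighbouring genes. Inbred mouse strains carry different forms of that adult beta locus, named Hbb-bs and Hbb-bt in some strains and Hbb-b1 and Hbb-b2 in others. Alas2 makes the first enzyme of haem synthesis in erythroid cells. Maturing red cells lose their nucleus and then their RNA, so in a tissue most globin RNA comes from young red cells in its blood, and lower amounts have been described in neurons and glia.

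The series holds 16 arrays of total RNA from spinal cord. By title, 8 arrays are controls, at 12 months (2 arrays titled female and 2 male) and 9 months (2 female and 2 male). A spastic group has 6 arrays: 2 females of 2 months titled Spa1 and Spa2, a male of 3 months titled sev, a male titled 3+ months, and 2 arrays of 6-month females titled Spa-M. The B6C3Fe group, named for a hybrid mouse stock, has 2 arrays of 1-month males. Spastic mice have a recessive defect of Glrb, which encodes the glycine receptor beta subunit. The labels name no allele, no genotype of the controls and no strain for the control and spastic groups, do not interpret sev or the letter M, and do not say whether blood was flushed from the cords. Arrays lettered a and b under a shared title were averaged to give 4 control, 5 spastic and 1 B6C3Fe sample. The labels do not say that samples are separate animals, so p-values measure only the spread between these samples. Titled ages do not overlap between the groups, although 3+ has no upper limit, and thus age and group cannot be told apart.

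Glrb separated the spastic arrays, at log2 intensities of 9.92 to 11.11, from the control arrays at 12.70 to 13.30 and the B6C3Fe arrays at 12.92 to 12.98. Xist, an RNA of female cells, was at 10.37 and 10.54 on the 2 spastic arrays titled male, close to the 10.55 to 12.07 of arrays titled female and far from the 5.93 to 5.97 of control and B6C3Fe arrays titled male, so the titled sex of those 2 arrays goes against their RNA. Markers of spinal cord cells, summed over each list, were bright on every array. The summed intensity was 43863 to 65528 for 7 neuron markers, 33902 to 61602 for 5 oligodendrocyte markers and 19018 to 35965 for 4 astrocyte markers. The log2 ratio of 3-prime to 5-prime probe sets of the Pcx control, a measure of RNA integrity, ran from 1.31 to 2.72 in controls, 2.00 to 2.18 in 2-month spastic, 2.24 to 2.98 in older spastic and 1.67 to 1.89 in B6C3Fe arrays. The share of probe sets at or under the floor, an intensity of 60.9 below which values were set to it, was highest in older spastic arrays, at 21.4% to 24.14%, against 14.7% to 21.51% in controls. Not every cord cell marker was bright: Cnp, of the oligodendrocyte list, was at the floor on 12 arrays and Syt1, of the neuron list, on 1. In bulk tissue, fewer cells of a type and less RNA per cell cannot be told apart. Precision is limited by how few arrays there are.

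The promoters of Hba-a1, Hbb-bt, Hbb-bs and Alas2 are shown first, because globin genes and Alas2 are textbook targets of the same erythroid factors. Hbb-bt and Hbb-bs have no level of their own here, since they were read by probe sets annotated to 4 adult beta genes together. Each line gives the 250 bases before the annotated transcript start, on the gene's strand, from RefSeq for GRCm38.p6. They lie at chr11:32283422-32283671 (plus strand) for Hba-a1, chr7:103813924-103814173 (minus strand) for Hbb-bt, chr7:103827929-103828178 (minus strand) for Hbb-bs and chrX:150547167-150547416 (plus strand) for Alas2. Capitals mark GATAA, bound by GATA factors, CACCC, bound by Klf1 and related factors, and CCAAT, on either strand; matches that adjoin without overlap print as 1 run, as in Hbb-bt for CCAAT on both strands and in Alas2 for CACCC on the opposite strand.
Hba-a1: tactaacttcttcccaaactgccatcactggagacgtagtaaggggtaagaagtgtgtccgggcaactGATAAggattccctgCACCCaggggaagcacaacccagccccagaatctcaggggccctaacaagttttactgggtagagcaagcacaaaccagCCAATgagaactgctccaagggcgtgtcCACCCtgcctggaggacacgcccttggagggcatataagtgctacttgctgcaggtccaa
Hbb-bt: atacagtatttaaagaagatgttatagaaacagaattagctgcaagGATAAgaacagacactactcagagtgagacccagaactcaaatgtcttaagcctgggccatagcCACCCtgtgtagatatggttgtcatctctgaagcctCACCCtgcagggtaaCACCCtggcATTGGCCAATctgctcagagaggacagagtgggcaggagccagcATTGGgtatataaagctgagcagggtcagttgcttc
Hbb-bs: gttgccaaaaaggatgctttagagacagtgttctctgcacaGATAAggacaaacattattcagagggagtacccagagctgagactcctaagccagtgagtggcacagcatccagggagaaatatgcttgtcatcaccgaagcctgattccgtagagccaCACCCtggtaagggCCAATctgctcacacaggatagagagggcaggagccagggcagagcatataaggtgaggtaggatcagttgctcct
Alas2: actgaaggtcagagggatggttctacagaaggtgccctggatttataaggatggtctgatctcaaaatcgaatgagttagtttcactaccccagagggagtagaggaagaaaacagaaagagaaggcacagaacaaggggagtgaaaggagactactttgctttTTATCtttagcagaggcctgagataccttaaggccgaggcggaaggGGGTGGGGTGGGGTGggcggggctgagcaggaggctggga
The promoter table held 7 of the 11 member genes; Hbb-b1, Hbb-b2, Hbb-bh1 and Hba-ps3 are named only. All 3 motifs lay in the windows of 5 of the 7, which are Hba-a1, Hba-a2, Hbb-bt, Hbb-bs and Hbb-y, and the same held for 3.47% of 27025 promoters of that length. GATAA alone was in 23.0% of them, CACCC in 51.3% and CCAAT in 34.5%. Alas2 and Hba-x had GATAA and CACCC and no CCAAT. The windows of Hba-a1 and Hba-a2 shared a run of 247 of 250 bases, and probes for these 2 genes can share RNA as well. These matches describe the letters of the windows, and binding was not measured here.

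Among the alpha globin probe sets, Hba-a1 (94781_at) had the widest range. Its intensity was 706 on array a and 2904 on array b of the 1-month B6C3Fe cords, and 7027 and 6012 on the 2-month spastic arrays Spa1 and Spa2. It was 14003 on the sev array of 3 months, 12497 on the 3+ array, and 24870 and 24266 on the 6-month arrays. The 8 control arrays ran from 14308 over a median of 16481 to 18731. The 4 arrays of 1 and 2 months were thus below all 12 older arrays, the 3-month and 3+ arrays lay just under the controls, and the 6-month arrays lay above them.

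On the log2 scale Hba-a1 was at 13.99 ± 0.09 (SD, n = 4) in controls, 13.46 ± 0.82 (SD, n = 5) in the spastic group and 10.48 for B6C3Fe. The spastic samples spread about the control mean in both directions, and the fitted difference, spastic minus control with titled sex in the model, was -0.51 (SE 0.34, adjusted p = 0.315 by limma). Spastic minus B6C3Fe was 3.06 (SE 0.59), an 8.36-fold difference, and B6C3Fe minus control was -3.57 (SE 0.59), 11.9-fold. Both rest on 1 B6C3Fe sample whose arrays differed by 2.04 on the log2 scale, while 41 of the 42 differences between lettered arrays of the same title, over the 7 tested members, were at most 1 in size and the median for Hba-a1 was 0.17.

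The other adult alpha probe set (162457_f_at, annotated as both Hba-a2 and Hba-a1 and called the shared alpha set) did not follow Hba-a1. Its intensity was 8514 and 11032 in B6C3Fe, 6715 and 8068 in 2-month spastic, 4820 on the sev, 3531 on the 3+, and 6986 and 9565 on the 6-month arrays. Controls ran from 4511 over a median of 6972 to 7964. Array b of B6C3Fe was the brightest here, where Hba-a1 was dim, and 2-month, older spastic and control arrays overlapped. Spastic minus control was -0.18 (SE 0.17, adjusted p = 0.471 by limma). Over the 16 arrays, which share titles in pairs, its correlation with Hba-a1 was -0.34, and over the 12 arrays of 3 months or more it was 0.69. The sources used here do not say which bases of the alpha transcripts each probe set covers.

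Hba-ps3 (101703_at), an alpha globin pseudogene on chromosome 15, was highest in the youngest cords. Its intensity was 2433 and 1996 in B6C3Fe and 1622 and 1447 in 2-month spastic arrays, against 874 on the sev, 982 on the 3+, and 1173 and 1000 on the 6-month arrays. Controls ran from 1109 over a median of 1287 to 1751. B6C3Fe lay above every other array, 2-month spastic arrays lay above all older spastic ones and within the control range, and the older spastic arrays reached into the low end of it. Spastic minus control was -0.20 (SE 0.15, adjusted p = 0.363 by limma). Whether its probes also read transcripts of the parent family was not tested; its correlation with Hba-a1 was -0.78 over the 16 arrays and -0.01 over the 12 of 3 months or more. The embryonic alpha-like gene Hba-x (100549_at) was dim, at 138 to 380 on all 16 arrays, with no order by group or age (spastic minus control -0.16, SE 0.23, adjusted p = 0.667 by limma).

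**Figure D1:**
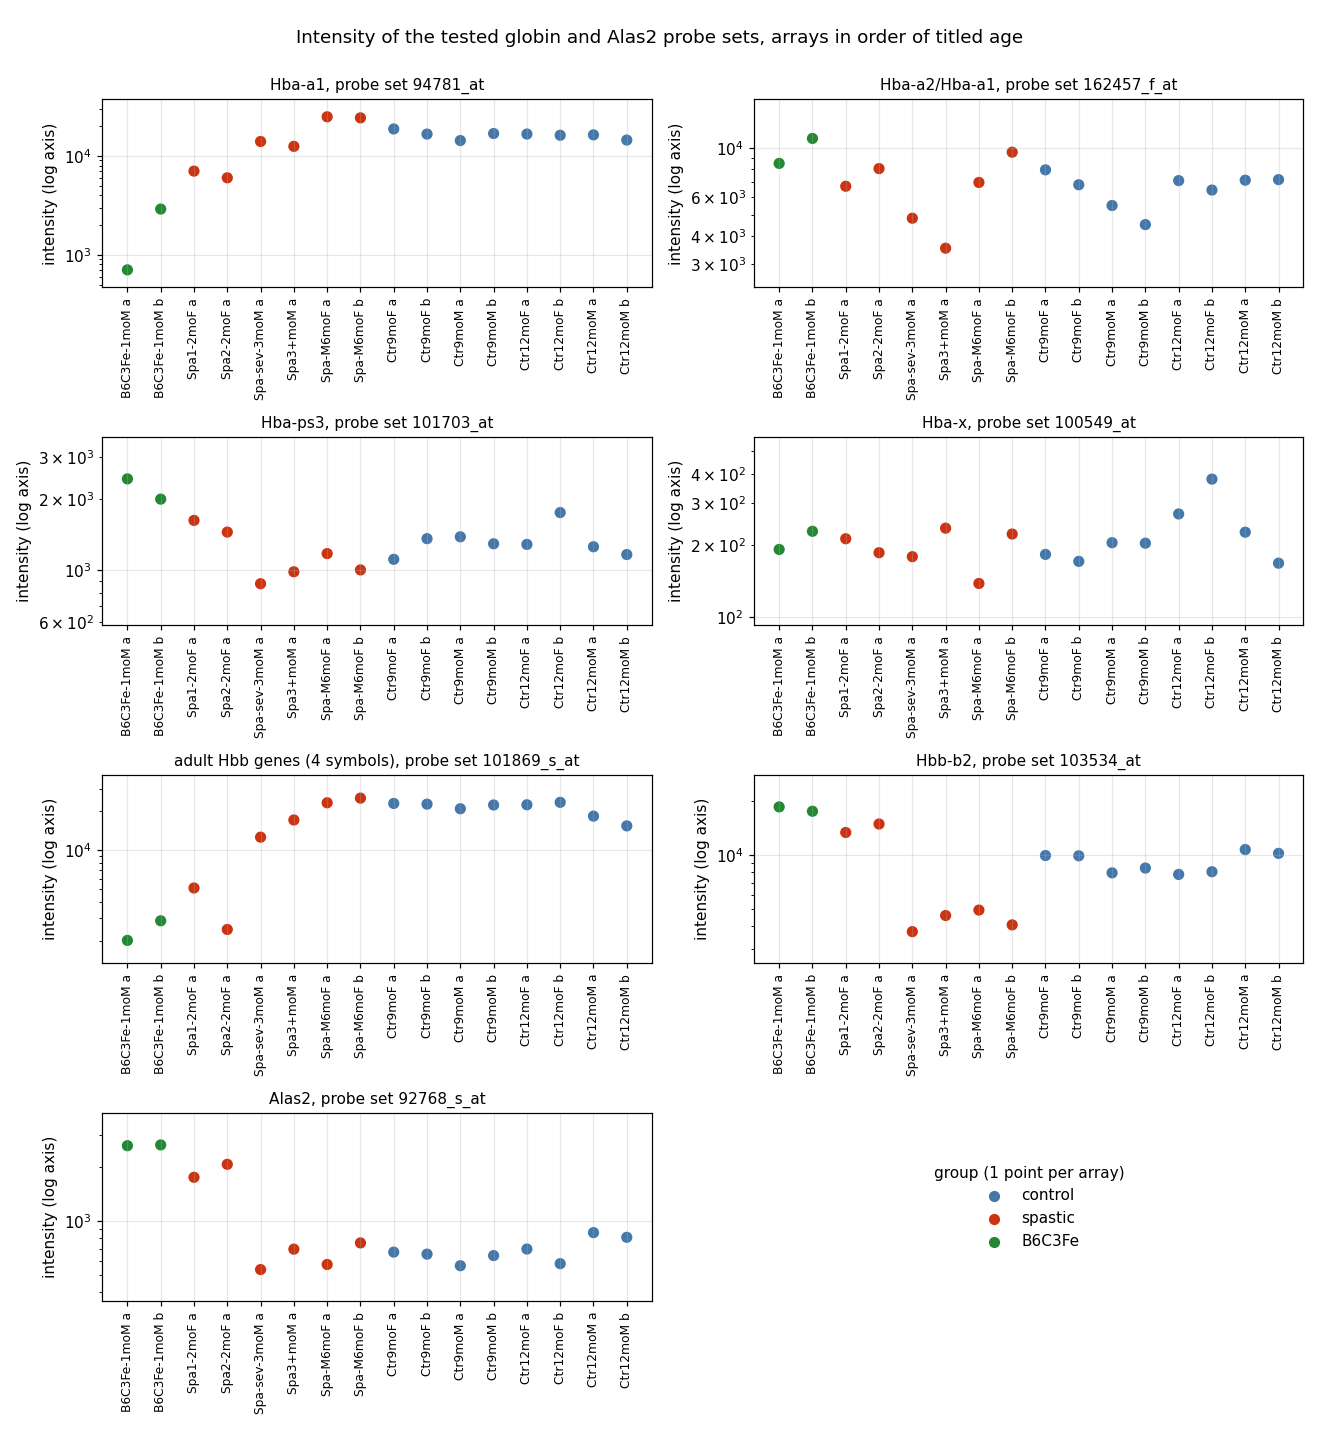
Intensity (log axis) of each of the 7 tested globin and Alas2 probe sets on each of the 16 arrays, ordered by titled age from 1 month on the left to 12 months on the right, 1 point per array, coloured by group; the vertical range differs between panels. Hba-a1 and the shared beta set 101869_s_at are low on the 4 youngest arrays and high on the rest, Alas2 and Hbb-b2 are highest on those 4, and Hba-x shows no such order.

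The adult beta globin probe sets went in opposite directions. Probe set 101869_s_at, annotated as Hbb-bt, Hbb-bs, Hbb-b2 and Hbb-b1 and called the shared beta set, had intensities of 2017 and 2859 in B6C3Fe and of 5124 and 2450 in 2-month spastic arrays. The older spastic arrays were at 12647 (sev), 17169 (3+), 23309 and 25321 (6 months). Controls ran from 15461 over a median of 22455 to 23491. The 2-month spastic array Spa2 lay within the B6C3Fe range, both young groups were well below every older array, and older spastic and control arrays overlapped.

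Its log2 level was 14.35 ± 0.21 (SD, n = 4) in controls, 13.17 ± 1.35 (SD, n = 5) in the spastic group and 11.23 for B6C3Fe. Spastic minus control was -1.14 (SE 0.54, adjusted p = 0.159 by limma), and without the 2-month samples it was -0.19 (adjusted p = 0.498 by limma), in a fit chosen after the values were seen. Spastic minus B6C3Fe was 2.24 (SE 0.93) and B6C3Fe minus control -3.37 (SE 0.93), a 10.4-fold difference. With an SD over the 10 samples of 1.34 this set ranked 22 of 6432 tested in spread, Hba-a1 with 1.18 ranked 43, Alas2 with 0.85 ranked 142 and Hbb-b2 with 0.78 ranked 185.

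Hbb-b2 (103534_at), named for 1 adult beta gene, was highest where the shared beta set was lowest. Its intensity was 18504 and 17498 in B6C3Fe and 13321 and 14855 in 2-month spastic arrays. It was 3731 on the sev, 4589 on the 3+, and 4920 and 4069 on the 6-month arrays, and controls ran from 7775 over a median of 9159 to 10702. The arrays fell into separate ranges: B6C3Fe above 2-month spastic, those above the controls, and all 4 older spastic arrays below all 8 controls.

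On the log2 scale Hbb-b2 was at 13.14 ± 0.20 (SD, n = 4) in controls, 12.74 ± 0.95 (SD, n = 5) in the spastic group and 14.14 for B6C3Fe. The fit over all spastic samples gave -0.46 against controls (SE 0.35, adjusted p = 0.384 by limma). In that fit without the 2-month samples, chosen after the values were seen, the difference was -1.09 (adjusted p = 0.00336 by limma). Hbb-b2 was the 1 member of 7 called there, beside 966 of all 6432 tested. Genes of the adult beta locus are near copies of each other, and how far each probe set reads the gene it is named for was not tested.

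Alas2 (92768_s_at) was also highest in the youngest cords. Its intensity was 2618 and 2644 in B6C3Fe and 1746 and 2062 in 2-month spastic arrays, and it was 535 on the sev, 695 on the 3+, and 571 and 753 on the 6-month arrays. Controls ran from 562 over a median of 661 to 859. The young arrays of both groups were above every older array, and older spastic and control arrays overlapped. The log2 level was 9.40 ± 0.21 (SD, n = 4) in controls, 9.93 ± 0.89 (SD, n = 5) in the spastic group and 11.36 for B6C3Fe. Spastic minus control was 0.47 (SE 0.34, adjusted p = 0.355 by limma), spastic minus B6C3Fe -1.77 (SE 0.59), and B6C3Fe minus control 2.24 (SE 0.59), a 4.72-fold difference.

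The 4 members under the filter were at or near the floor. Hbb-bh1 (103533_at) ran from 98.8 to 191. The 2 probe sets of Hbb-y ran from 27.2 to 254 (103535_at, at the floor on 3 arrays) and from 44.7 to 216 (97180_f_at, at the floor on 4). A second probe set of the adult beta genes (160560_at) read 4.23 to 60.8 and was at the floor on all 16 arrays, on which the shared beta set read at least 2017, so these 2 sets with the same 4 gene symbols gave opposite pictures of the level.

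Spastic and control samples differ in titled age as well as in group, so a difference between them cannot be given to the mutation. In this comparison 0 of the 7 tested members passed limma's test, where 19.8% of all 6432 tested passed (9.81% higher and 9.95% lower). At an unadjusted p under 0.05 in limma's test there were 0 members, beside 2204 of all 6432 tested. Their differences ran from -1.14 to 0.47 with a median of -0.20, against a median of -0.02 over all tested. Without the 6-month spastic sample, the one with the highest Hba-a1, the count was 2, beside 1043 of all 6432 tested. Hba-a1 was then at -0.81 (adjusted p = 0.0238 by limma) and the shared beta set at -1.54 (adjusted p = 0.0307 by limma). With log2 of titled age in the model and B6C3Fe among the controls the count was 3, beside 702 of all 6432 tested. Hba-a1 then turned to 1.42 (adjusted p = 0.00267 by limma), Hba-ps3 was at -0.70 and Hbb-b2 at -1.30. In that fit the 1-month sample alone gives the low end of control age. The arrays of that sample were also used to choose Hba-a1, so this fit is a description and supports nothing.

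Among the controls, 12 minus 9 months gave 0 of 7 members and 0.0% of all tested, and member differences ran from -0.18 to 0.40; 346 of 6432 had an unadjusted p under 0.05 in limma's test, 0 of them members. Female minus male by title likewise gave 0 of 7 members and 0.0% of all tested, with 389 at an unadjusted p under 0.05. Of the members, the shared alpha set (0.59, SE 0.17, adjusted p = 0.799 by limma) and Hba-ps3 (0.35, SE 0.15, adjusted p = 0.799 by limma) were among these. The titled sex of 2 spastic arrays goes against their Xist level, as given above.

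Of the comparisons with the 1-month stage, spastic minus B6C3Fe was used to choose Hba-a1. It passed limma's test for 2 of 7 members (Hba-a1 and Hba-ps3) beside 2.05% of all tested. B6C3Fe minus control passed for 1 of 7 (Hba-a1) beside 0.389%. Both comparisons share the B6C3Fe arrays, and nothing is read from these counts. Titled age differs between B6C3Fe and the other groups, for which the labels name no strain. Stage and any difference of stock thus cannot be told apart. The control arrays that share the titled sex of B6C3Fe (male) had Hba-a1 intensities of 14308 to 16854, against 706 and 2904 in B6C3Fe.

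The 2-month spastic samples were then set beside the 3 older spastic samples, a split by titled age chosen after the values were seen and given without a test. Of the 7 members, 2 were past 2-fold higher at 2 months, beside 1.2% of all tested, and 2 were past 2-fold lower, beside 0.466%. The higher ones were Hbb-b2 (difference of log2 means 1.73, 3.31-fold) and Alas2 (1.60, 3.04-fold). The lower ones were the shared beta set (-2.30, 4.91-fold) and Hba-a1 (-1.32, 2.5-fold). In size these ranked 28, 36, 9 and 50 of 6432, in that order. Hba-ps3 was at 0.65 and the shared alpha set at 0.51, and Hba-x was at 0.03. Both 2-month samples are titled female and 2 of the 3 older ones male; with a term for titled sex the shared alpha set was at 0.15, Hba-x at -0.01 and the other 5 at -2.59 to 1.72, on the same side of 0 as without it. For each of the 7 the 2-month mean lay between the older spastic mean and the B6C3Fe value. For Hba-x these lay close together, at 7.64, 7.61 and 7.71 in that order. The order uses the B6C3Fe arrays and has no share over all tested beside it, so nothing is read from it. The words sev and M stand only in titles of older samples, and the 3+ title holds neither. What part they have in this split was not tested.

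**Figure D2:**
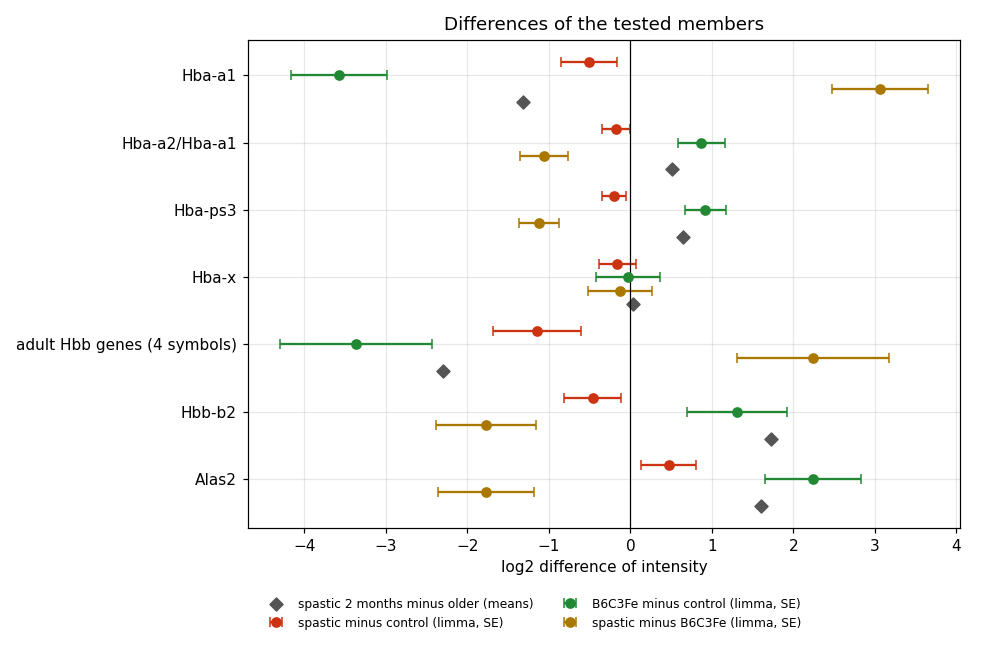
Differences of log2 intensity for the 7 tested members: circles are fitted differences with bars of 1 standard error from limma for spastic minus control, B6C3Fe minus control and spastic minus B6C3Fe, and diamonds are the difference of means of 2-month minus older spastic samples, with no error. B6C3Fe minus control and 2-month minus older spastic lie on the same side of 0 for the members other than Hba-x, while spastic minus control lies between -1.14 and 0.47.

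Pairs of members are described by the correlation of log2 values over the 16 arrays, which share titles, scaling and age order. Hba-a1 and the shared beta set went together (r = 0.90), and both ran against Alas2 (r = -0.87 and -0.95). Hbb-b2 ran with Alas2 (r = 0.78) and Hba-ps3 (r = 0.82) and against the shared beta set and Hba-a1 (r = -0.70 for both). Over the 12 arrays of 3 months or more, Hba-a1 and the shared beta set were at r = 0.67 and Hbb-b2 and Hba-ps3 at 0.65. The correlations with Alas2 were 0.03 for Hba-a1, -0.01 for the shared beta set and 0.38 for Hbb-b2 there, so the opposed course of Alas2 and the 2 globin sets came from the 4 youngest arrays.

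**Figure D3:**
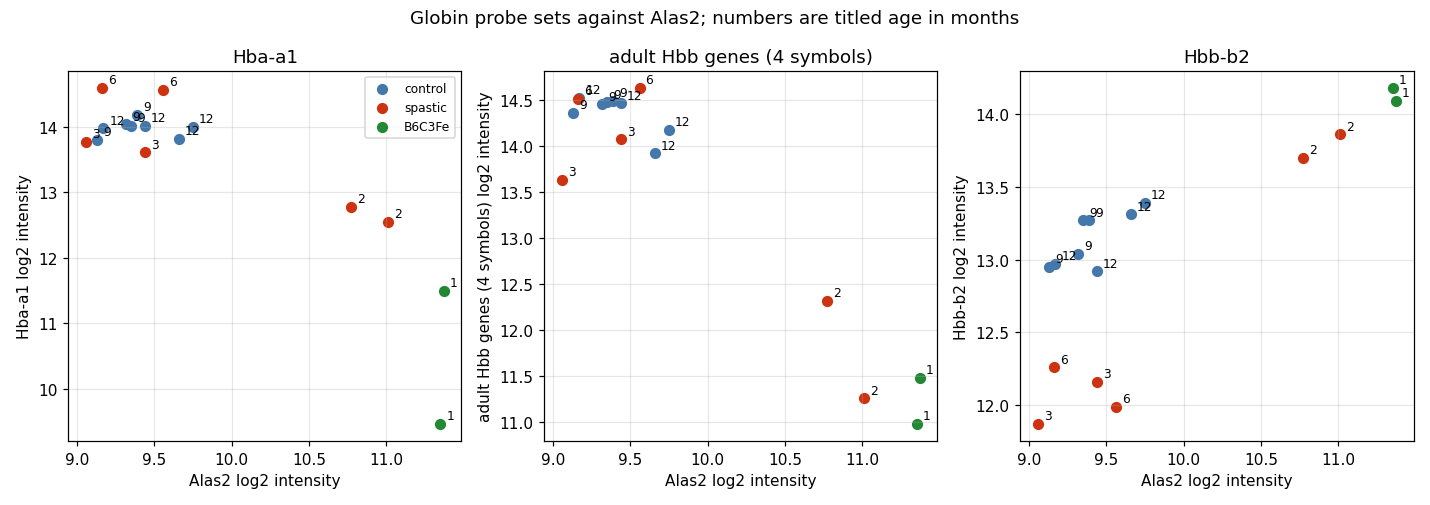
Log2 intensity of Hba-a1, the shared beta set and Hbb-b2 (vertical axes) against that of Alas2 (horizontal axis), 1 point per array, coloured by group and numbered by titled age in months. The 4 arrays of 1 and 2 months stand apart at high Alas2, with low Hba-a1 and the shared beta set and high Hbb-b2; among older arrays the spastic points lie below the controls for Hbb-b2.

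The genes whose pattern was most like that of Hba-a1 over the 16 arrays, by Pearson correlation among all tested, were Snrk (0.89), Ldhb (0.87), Strbp (0.86), Pomp (0.85) and Celf4 (0.84). Those most opposed were Cdkn1c (-0.91), Cldn11 (-0.88), Alas2 (-0.87), Fyn (-0.86) and Gsn (-0.85). Ldhb encodes a lactate dehydrogenase subunit, Celf4 a neuronal RNA-binding protein, Cldn11 a tight junction protein of myelin, Cdkn1c a cell cycle inhibitor and Gsn the actin-severing protein gelsolin. Snrk, for instance, was at a log2 level of 8.96 in B6C3Fe, 10.43 in 2-month spastic, 10.55 in older spastic and 10.50 in control samples. Over the 12 older arrays the likeness was 0.56 for Ldhb, -0.14 for Snrk and -0.51 for Strbp. For Snrk and Strbp it thus came from the young arrays, and for Snrk only B6C3Fe stood apart among these. For Ldhb part of it remained in the older arrays.

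The lists of erythroid genes that follow are read in spastic minus control against the 9.81% of all tested genes called higher and the 9.95% called lower. Of the 10 genes named from these lists as called, 0 passed once the Pcx ratio was added to the model (adjusted p = 0.0679 to 0.722 by limma), a fit in which 9 of all genes were called. Without the 2 spastic samples titled male 4 of the 10 were called, and 5 with log2 of age and B6C3Fe among the controls.

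Genes of the red cell membrane and its skeleton were 8 of a list of 16 on the array, and 5 were tested. In spastic minus control 2 rose and 0 fell, with a median over the 5 of 0.17. The actin-binding protein gene Dmtn rose (0.52, SE 0.11, adjusted p = 0.00908 by limma), as did Ank1, the ankyrin that anchors the membrane skeleton (0.42, SE 0.11, adjusted p = 0.0201 by limma); both are also expressed in brain. Dmtn was called in 9 of 9 fits that left out a sample and in 17 of 19 other alternatives, losing the call with the Pcx ratio (adjusted p = 0.0679) and with log2 of age (0.0632). Ank1 kept it in 5, losing it without the 12-month female (adjusted p = 0.0695), 12-month male (0.0562) or 9-month male controls (0.0526) and without the 3+ month spastic sample (0.0549). Between 2-month and older spastic samples Dmtn differed by 0.04 and Ank1 by 0.01.

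The other 3 tested genes of that list encode proteins of the red cell surface, and are described after their values were seen. The anion exchanger Slc4a1 had an intensity of 700 and 1087 on the 2-month spastic arrays, 146 to 356 on the older spastic ones, 520 and 450 in B6C3Fe and 204 to 504 in controls. Rhd, a protein of the Rh complex, was at the floor on all 4 older spastic arrays (35.0 to 49.3), at 272 and 746 on the 2-month ones, 266 and 511 in B6C3Fe and 128 to 574 in controls. Rhag, the ammonium channel of the same complex, was at 425 and 1130, 228 to 280, 397 and 507, and 269 to 484 in the same order. All 3 were thus past 2-fold higher at 2 months than later in the spastic group, beside 1.2% of all tested. Their direction was that of Alas2 and Hbb-b2 and against that of Hba-a1 and the shared beta set. For each of the 3, the 2-month array Spa2 was the brightest of all 16.

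Haem synthesis beyond Alas2 was read from 6 tested genes of 8. Alad, the enzyme that follows it, rose in spastic minus control (0.90, SE 0.18, adjusted p = 0.00672 by limma), and 1 rose and 0 fell in all. Alas1, the form of the first enzyme used outside erythroid cells, was at 0.11 (SE 0.10, adjusted p = 0.49 by limma). Alad was at a log2 level of 11.00 in 2-month and 10.66 in older spastic samples, 9.86 in controls and 10.11 in B6C3Fe, so its course over the groups differed in order from that of Alas2. It was called in 9 of 9 fits that left out a sample and in 17 of 19 other alternatives, losing the call with the Pcx ratio (adjusted p = 0.148) and with log2 of age (0.051).

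Of 10 tested genes of erythroid transcription and signalling, 1 rose and 0 fell: Zfpm1, the partner of GATA factors known as FOG (0.57, SE 0.15, adjusted p = 0.0218 by limma). It lost its call without the 12-month female (adjusted p = 0.0785) or 9-month female controls (0.0591), and without the 3+ month spastic sample (0.0606). Stat5a, a transducer of erythropoietin signals, was at 0.11 (SE 0.12, adjusted p = 0.536 by limma). In 2-month against older spastic samples 1 of the 10 was past 2-fold higher, Nfe2 (difference 1.30), which drives globin and platelet genes and was named after its value was seen, and the median over the 10 was 0.22 against 0.01 over all tested.

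Iron handling and haem breakdown gave 3 genes that rose and 2 that fell among 9 tested in spastic minus control. Ireb2, which represses or stabilises transcripts by iron supply, fell (-0.89, SE 0.13, adjusted p = 0.00204 by limma) and was called in 9 of 9 fits that left out a sample and in 18 of 19 other alternatives, the exception being the Pcx ratio (adjusted p = 0.0795). The ferroxidase Cp rose (0.79, SE 0.23, adjusted p = 0.0328 by limma), as did the iron importer Slc11a2 (0.43, SE 0.11, adjusted p = 0.0234 by limma), and biliverdin reductase, Blvra, fell (-0.45, SE 0.14, adjusted p = 0.0423 by limma). Blvra was called in 1 of 9 fits that left out a sample, all but the one without the 12-month male controls giving adjusted p = 0.0551 to 0.124. Cp lost its call without the 12-month male (0.0858) or 9-month male controls (0.0934), the 6-month (0.0525) or the 3+ month spastic sample (0.066). Slc11a2 lost it without the 12-month male (0.0674) or 9-month male controls (0.0519), the sev (0.0572) or the 3+ month sample (0.0616). None of the 9 was past 2-fold between 2-month and older spastic samples.

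Of 8 tested enzymes and antioxidants of red cells, 1 rose and 1 fell. Superoxide dismutase, Sod1, rose (0.53, SE 0.11, adjusted p = 0.0089 by limma) and was called in 9 of 9 fits that left out a sample and in 16 of 19 other alternatives. It lost the call with only arrays lettered a (adjusted p = 0.099), with the Pcx ratio (0.18) and without the 2 spastic samples titled male (0.148). Carbonic anhydrase Car2, which oligodendrocytes also express, fell (-0.52, SE 0.13, adjusted p = 0.0175 by limma). It lost its call without the 12-month male (adjusted p = 0.0534) or 9-month male controls (0.0519) and without the 3+ month spastic sample (0.054). In the 2-month against older spastic samples 0 of the 8 were past 2-fold.

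Markers of other blood cells were followed beside the globin genes. Of 10 neutrophil markers, all on the array and 8 tested, 5 were past 2-fold higher and 0 lower in 2-month than in older spastic samples. The shares over all tested were 1.2% and 0.466%, and the median over the 8 was 2.11. The summed intensity of all 10 was 12208 to 25551 in 2-month spastic, 3662 to 5439 in older spastic, 7973 to 16201 in control and 9555 to 10470 in B6C3Fe arrays. By this sum the older spastic arrays lay under all others. The 5 past 2-fold are named here after their values were seen. Ngp, a neutrophil granule protein, was at a log2 level of 11.17 in 2-month spastic, 7.30 in older spastic, 10.37 in control and 9.70 in B6C3Fe samples. The calprotectin subunits S100a8 (12.16, 9.48, 11.52 and 11.00) and S100a9 (11.41, 8.68, 10.99 and 10.26), the antimicrobial peptide Camp (12.02, 9.56, 11.43 and 10.66) and lactoferrin, Ltf (9.70, 7.94, 9.37 and 8.70), had the same order of group means. The place of the 2-month mean above controls rested on array Spa2, since Spa1 lay within the control range for all 5. S100a8, for instance, had an intensity of 2917 on Spa1 and 7151 on Spa2, against 1618 to 4381 in controls.

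In spastic minus control 0 of the 8 passed limma's test, with a median of -0.90; Ngp was at -1.63 (adjusted p = 0.217), S100a8 at -1.05 (0.255), S100a9 at -1.31 (0.172), Camp at -0.99 (0.211), Ltf at -0.80 (0.158) and Rhd at -1.10 (0.225). Without the 2-month samples these 6 were called lower, from -1.39 for Ltf (adjusted p = 0.00359 by limma) to -3.11 for Ngp (adjusted p = 0.0047 by limma). That fit was chosen after the values were seen, and 966 of all 6432 tested were called in it. Without the 2-month sample Spa2 alone, 5 of the 6 were called, beside 1241 of all tested. They were S100a8 (-1.53, adjusted p = 0.0406), S100a9 (-1.76, 0.038), Camp (-1.41, 0.0295), Ltf (-1.12, 0.0134) and Rhd (-1.58, 0.0311). The 6 genes were named after their values were seen, for being lower in older than in 2-month spastic samples. Both fits rest on those older samples, so these calls are a description and support nothing. At 2 months, 5 of 8 neutrophil markers and 3 of 5 tested red cell membrane genes were past 2-fold higher than in older spastic samples. The share over all tested was 1.2%. Of that membrane list, Dmtn differed by 0.04 and Ank1 by 0.01. Alas2 and Hbb-b2 were also past 2-fold higher, while Hba-a1 and the shared beta set were past 2-fold lower. The other 3 neutrophil markers were at 0.02 (Lcn2), 0.03 (Csf3r) and 0.86 (Elane). What part blood content has in the globin values was not tested.

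**Figure D4:**
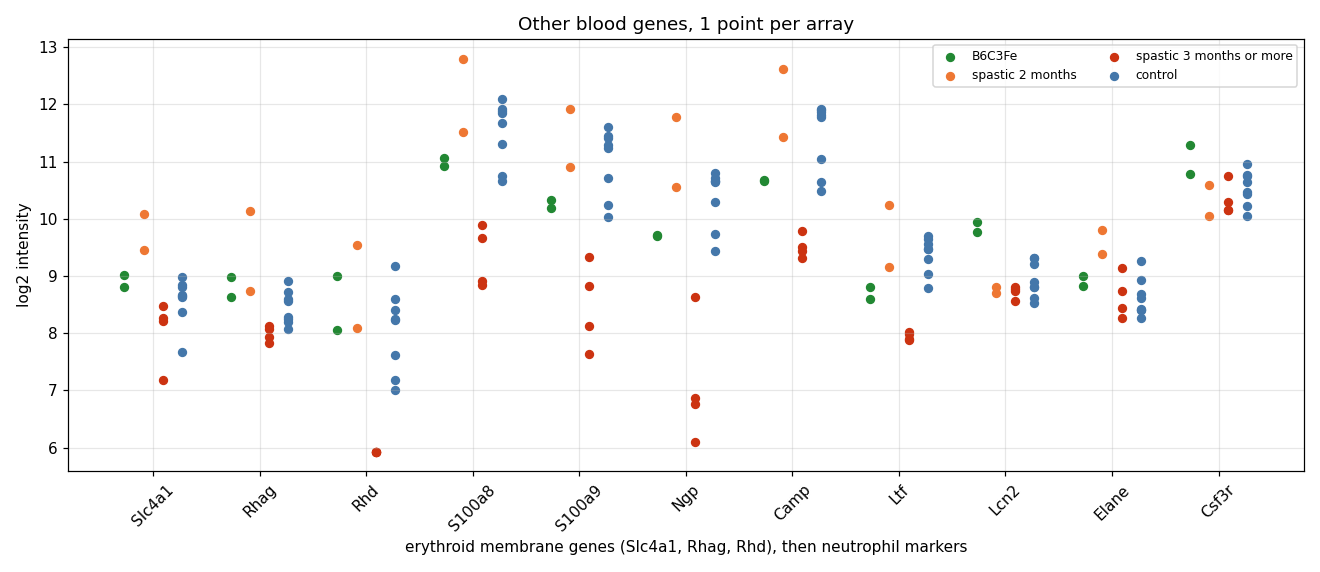
Log2 intensity of 3 red cell surface genes and 8 neutrophil markers on each array, 1 point per array, coloured by group with the spastic group split by titled age. The older spastic points are the lowest for S100a8, S100a9, Ngp, Camp and Ltf and sit at the floor of 5.93 for Rhd, while older spastic and control points overlap for Lcn2, Elane and Csf3r.

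Other cell types gave further values beside these. Of 9 tested microglia and macrophage markers 0 were past 2-fold in either direction between 2-month and older spastic samples, of 3 lymphocyte markers 0, and of 11 endothelial and mural markers 0, although 9 of those 11 were called higher in spastic than in control cords, beside 9.81% of all tested. The summed intensity of the endothelial and mural list was 8605 to 8881 in 2-month spastic, 9658 to 11092 in older spastic, 4340 to 5434 in control and 5058 to 5102 in B6C3Fe arrays. The 3 platelet markers on the array, summed, were at 217 to 471 on all arrays and the 7 plasma proteins of liver at 500 to 826, with Fgb at the floor on all 16 arrays, and none of either list was tested.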

How the data were processed

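Spinal cord RNA was hybridised to 16 single-colour arrays. The authors deposited linear intensity values, scaled before deposit: with 2% of probe sets trimmed from either end, the mean of each array lay at 800.4 to 800.5. No further normalization was applied. The sources used here do not name the software. Median intensity per array was 289 to 383.6. Values below the 20th percentile of all values (60.9, log2 5.93) were raised to it before log2 values were taken, so differences of dim genes are understated. Probe sets were named from GEO's platform annotation (10833 with 1 symbol, 396 with several, 1193 with none); 10817 matched the RefSeq gene table by Entrez ID, and 0 symbols changed. The 66 control probe sets were left out. Tests covered probe sets with a mean log2 value over the 40th percentile, and for a gene with several, the brightest.

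Arrays of 1 title (letters a and b) were averaged to 10 samples. Tests used limma 3.58.1 under R 4.3.3 (trend, terms for group and titled sex, a spread shared by the groups, 2-sided, Benjamini-Hochberg adjustment over all 6432 tested, called at an adjusted p under 0.05), after tests on simulated data. The members, the gene lists (10 sets of cell type markers and 5 lists of erythroid genes) and the tests were chosen with earlier results of these data known. Named were every member, up to 4 called genes of each erythroid list (the 2 brightest where fewer than 2 were called), and the 5 tested genes with the highest and the 5 with the lowest correlation with Hba-a1; other names were chosen after their values were seen and are so marked. Alternatives were other floors and filters, quantile normalization, other treatments of lettered arrays, every probe set, no trend, no sex term, the Pcx ratio or log2 of age as covariates, B6C3Fe pooled or left out, and leaving out samples. Chosen after seeing the data were the split and the fit by 2 months of age. Promoter windows came from RefSeq (GRCm38.p6), and motifs were searched on both strands.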

Additional observations from a re-analysis of the deposited data

How the results depend on the processing

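Of the alternatives to the count of 1271 genes called between spastic and control, 759 were called with only arrays lettered a, 9 with the Pcx ratio as a covariate, 702 with log2 of age and B6C3Fe among the controls, 398 without the 2 spastic samples titled male, and 724 to 1241 with 1 sample left out (724 without the 12-month female, 811 without the 12-month male and 790 without the 9-month male controls). Of the members, 0 were called in that comparison, 3 with log2 of age and 0 to 2 with 1 sample left out. Without the 2-month spastic samples 1 member was called, beside 966 of all tested. In 12 minus 9 months 12 genes were called with no filter, 10 with every array as its own replicate, 2 with the sample as a random block and 8 with the letter as a replicate block. Female minus male gave 3 with every array as its own replicate and 3 without the spastic samples titled male. Members called stayed at 0 in both under all alternatives run.

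Spastic minus control changed sign for several members, none of them called in the fit given in the text. With log2 of age, Hba-a1 was at 1.42, the shared beta set at 0.81 and Alas2 at -0.77, and also Alas1 at -0.06 and Stat5a at -0.05. Without the 2-month samples Hba-a1 was at 0.08 and Alas2 at -0.12, and with B6C3Fe among the controls Hba-a1 was at 0.09. With the Pcx ratio Hba-ps3 was at 0.07, Hbb-b2 at 0.14, the shared alpha set at 0.04, S100a8 at 0.17, S100a9 at 0.04, Ngp at 0.70 and Camp at 0.13. Without the spastic samples titled male Hba-ps3 was at 0.01, Hbb-b2 at 0.12 and the shared alpha set at 0.11, and Hba-x was at 0.04 after quantile normalization. With 1 sample left out, Hba-x ran from -0.30 to 0.07, Hba-a1 from -0.81 to -0.30, the shared alpha set from -0.28 to -0.03, Hba-ps3 from -0.32 to -0.13, the shared beta set from -1.54 to -0.71, Hbb-b2 from -0.68 to -0.25 and Alas2 from 0.26 to 0.68. The causes were not tested.

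The letters mark arrays of 1 title and pair nothing across groups: the difference a minus b correlated at -0.04 to 0.16 between the 6 titles, over 0.1 in 1 of 15 pairs. With the letter as a replicate block 1821 genes and 0 members were called between spastic and control, and Rhd (-1.51, adjusted p = 0.042), S100a8, S100a9, Ngp, Camp and Ltf were then called lower while Blvra was not called. The genes called lower had been named after their values were seen, so these calls support nothing. Age, group and the 1 B6C3Fe sample limit every comparison over stage, and dim probe sets near the floor limit Hbb-y, Hbb-bh1 and Rhd. Female minus male could not be computed without the sex term.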

Other observations

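Beyond blood genes, the 107 tested genes past 2-fold between 2-month and older spastic samples included those named here. They were chosen after their values were seen, and the split has no test. Which cells or tissue their RNA came from was not tested. Col1a1, the main collagen of bone, tendon and meninges, was at a log2 level of 12.37 in 2-month spastic, 10.04 in older spastic, 10.48 in control and 11.90 in B6C3Fe samples. Klk1b22, a kallikrein, was at 9.60, 6.78, 8.36 and 8.58 in the same order, and Acta1, skeletal muscle actin, at 11.63, 9.59, 11.77 and 11.05. Acta1 was thus low only in the older spastic samples among these 4 sets, whereas Col1a1 was high in both young ones.

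In the other direction, the pituitary hormone Prl was at 6.84 in 2-month spastic, 8.97 in older spastic, 8.40 in control and 9.03 in B6C3Fe samples, with 1 older spastic array at the floor. Cdkn1a, a cell cycle inhibitor, was at 8.93, 10.76, 8.62 and 9.32, and Gpx3, a secreted glutathione peroxidase, at 9.87, 11.20, 10.16 and 10.28.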
